A study of Homo sapiens with 12 samples.

Results

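The mRNAs of 10 amino acid transporters, SLC1A3, SLC1A4, SLC1A5, SLC3A2, SLC7A1, SLC7A5, SLC7A11, SLC38A1, SLC38A2 and SLC6A9, were followed in A375 cells, an established human melanoma cell line with mutated BRAF. They were taken by symbol from a table of 44659 genes, and each symbol was found once. The MAPKi group received vemurafenib, which inhibits BRAF, and cobimetinib, which inhibits MEK, at 500 nM each for 24 h, and was compared with cells given the solvent DMSO. The Gln-depleted group was cultured for 24 h in glutamine-free medium and was compared with cells in CTRL medium. Outside the Gln-depleted group the cells were grown with 2 mM glutamine. Each group holds 3 RNA-seq libraries, 12 in all, from 1 cell line. The sample labels put the MAPKi experiment in sequencing batch 2 and the Gln experiment in sequencing batch 1, so that levels of both experiments were not compared by a test. Within the Gln experiment, replicate 1 of both groups belongs to experimental batch 1 and replicates 2 and 3 to batch 2.

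Amino acid transporters are membrane proteins that move amino acids into or out of the cell, many of them by exchange of one amino acid for another. SLC3A2, the heavy chain known as CD98, carries no amino acid itself and is joined by a disulfide bond to a light chain that does, such as SLC7A5 or SLC7A11. SLC7A5 exchanges large neutral amino acids such as leucine, and SLC7A11 imports cystine in exchange for glutamate. SLC1A4 and SLC1A5 exchange small neutral amino acids, SLC1A5 glutamine among them, while their relative SLC1A3 takes up glutamate and aspartate. SLC7A1 carries arginine and lysine, SLC38A1 and SLC38A2 take up glutamine and other neutral amino acids with sodium, and SLC6A9 takes up glycine. When amino acids are scarce, the transcription factor ATF4 is made and binds C/EBP-ATF composite elements near stress genes, transporters among them. NRF2, encoded by NFE2L2, binds antioxidant response elements, and MYC binds E-boxes.

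The promoter sequences of the transporters are shown for the letters of these 3 elements, because ATF4, NFE2L2 and MYC were measured in the same libraries. RefSeq windows on GRCh38.p14, from 250 bases before to 50 bases after a start site, were given for 9 of the 10 genes, 17 windows in all, and SLC7A11 had none. The composite letters TGATGNAA, searched on both strands, occurred in 6 of the 17 windows and in 6 of the 9 genes, against 3.62% of 35116 windows and 4.46% of 27305 genes. A gene was counted if any of its windows held the letters, and the number of windows differs between genes. The matches are printed 5′ to 3′ on the strand of the gene, with the matching letters in capitals.
SLC1A3, chr5:36596357-36596386, plus strand: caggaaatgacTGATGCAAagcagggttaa
SLC1A4, chr2:64989381-64989410, plus strand: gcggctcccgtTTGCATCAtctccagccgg
SLC1A5, chr19:46784893-46784922, minus strand: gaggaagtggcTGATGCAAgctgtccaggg
SLC3A2, chr11:62881719-62881748, plus strand: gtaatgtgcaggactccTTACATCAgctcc
SLC7A1, chr13:29595663-29595692, minus strand: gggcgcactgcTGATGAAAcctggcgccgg
SLC38A1, chr12:46266502-46266531, minus strand: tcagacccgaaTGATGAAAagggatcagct
The SLC1A4 and SLC3A2 matches lie on the opposite strand. The matches begin 220 bases (SLC1A3), 97 bases (SLC1A5), 7 bases (SLC1A4) and 4 bases (SLC38A1) before the start site of their window. Those of SLC7A1 and SLC3A2 begin 8 bases and 38 bases after it. For SLC1A4, SLC1A5, SLC3A2 and SLC38A1 that start site lies inside the annotated gene, not at its outer end.

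The core of the antioxidant response element, TGACNNNGC on both strands, occurred in 5 of the 17 windows and in 5 of the 9 genes, against 13.3% of windows and 16.1% of genes. In SLC1A3 and SLC1A5 these letters stand in another window than the composite letters, that is at another start site. The letters in SLC3A2 and SLC7A5, whose proteins join as 1 transporter, are shown, followed by the E-box letters CACGTG of the light chain.
SLC3A2 antioxidant core, chr11:62881652-62881681, plus strand: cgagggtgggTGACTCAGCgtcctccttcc
SLC7A5 antioxidant core, chr16:87869490-87869519, minus strand: gcggggttccTGACGCAGCtgcgggcggcg
SLC7A5 E-box, chr16:87869620-87869649, minus strand: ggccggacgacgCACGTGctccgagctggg
The E-box letters occurred in 2 of the 17 windows, 1 of SLC7A5 and 1 of SLC1A5, against 7.26% of all windows. SLC38A2 and SLC6A9 held none of the 3 sets of letters in these windows. A match describes letters only, and whether a factor binds there was not measured.

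The levels below are in CPM, the counts of a gene per 1000000 counts of its library after TMM normalization. Reads counted per library ranged from 31056296 to 40071368. Replicates of the Gln experiment differed from each other more than those of the MAPKi experiment, as the chi-square per degree of freedom of their counts was 39.6 to 191 in the first and 4.74 to 15.6 in the second, where counting error alone gives about 1. DUSP6 and SPRY4, which ERK signalling induces, had log2 fold changes of −9.53 and −7.46 with MAPKi (edgeR, adjusted p = 2.41e-10 and 8.37e-11). All 7 melanocyte markers had reads in every group, with a summed level of 8744 to 11119 CPM in MAPKi, 1333 to 1412 in DMSO, 980.4 to 1229 in CTRL medium and 657 to 695 in Gln-depleted libraries. The 6 keratinocyte, fibroblast and leukocyte markers summed to between 0.329 and 2.17 CPM in every library, with KRT5 and CD3E at 0. Most of the MAPKi sum was DCT, at 6981 to 9266 CPM against 162 to 242 with DMSO. With MAPKi 5 of the 7 were called up, SOX10 was not called (log2 fold change 0.54), and S100B was called down (−2.13, 38.1 to 42.1 CPM against 167 to 180.2), and with Gln depletion MITF was called down (−2.39) among 6 tested. Over all genes 17.2% were called up and 18.4% down with MAPKi, and 2.41% down with Gln depletion. The part of these marker changes in the results below was not tested. In bulk RNA, fewer cells of a kind and less RNA per cell cannot be told apart.

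With MAPKi, the transporters moved in both directions. SLC7A5, SLC3A2 and SLC1A4 were upregulated, and SLC7A11, SLC1A5, SLC7A1, SLC1A3 and SLC38A1 were downregulated. An mRNA was called when its change exceeded 1.5-fold, in a test of the log2 fold change against that size, at an adjusted p of at most 0.05 (edgeR). Below, the adjusted p beside a log2 fold change is from a test against no change unless stated. Where a call was lost, the adjusted p given is from the test against 1.5-fold. Of 9 transporters tested, 3 were up, 5 were down and 1 was neither, where 17.2% of all 12593 genes tested were up and 18.4% were down. The median log2 fold change was −0.77 over the 9 transporters and 0.01 over all genes. The MAPKi and DMSO libraries of all 9 did not overlap, 4 higher and 5 lower, which was also the case for 40.8% (higher) and 40.2% (lower) of all genes.

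**Figure D1:**
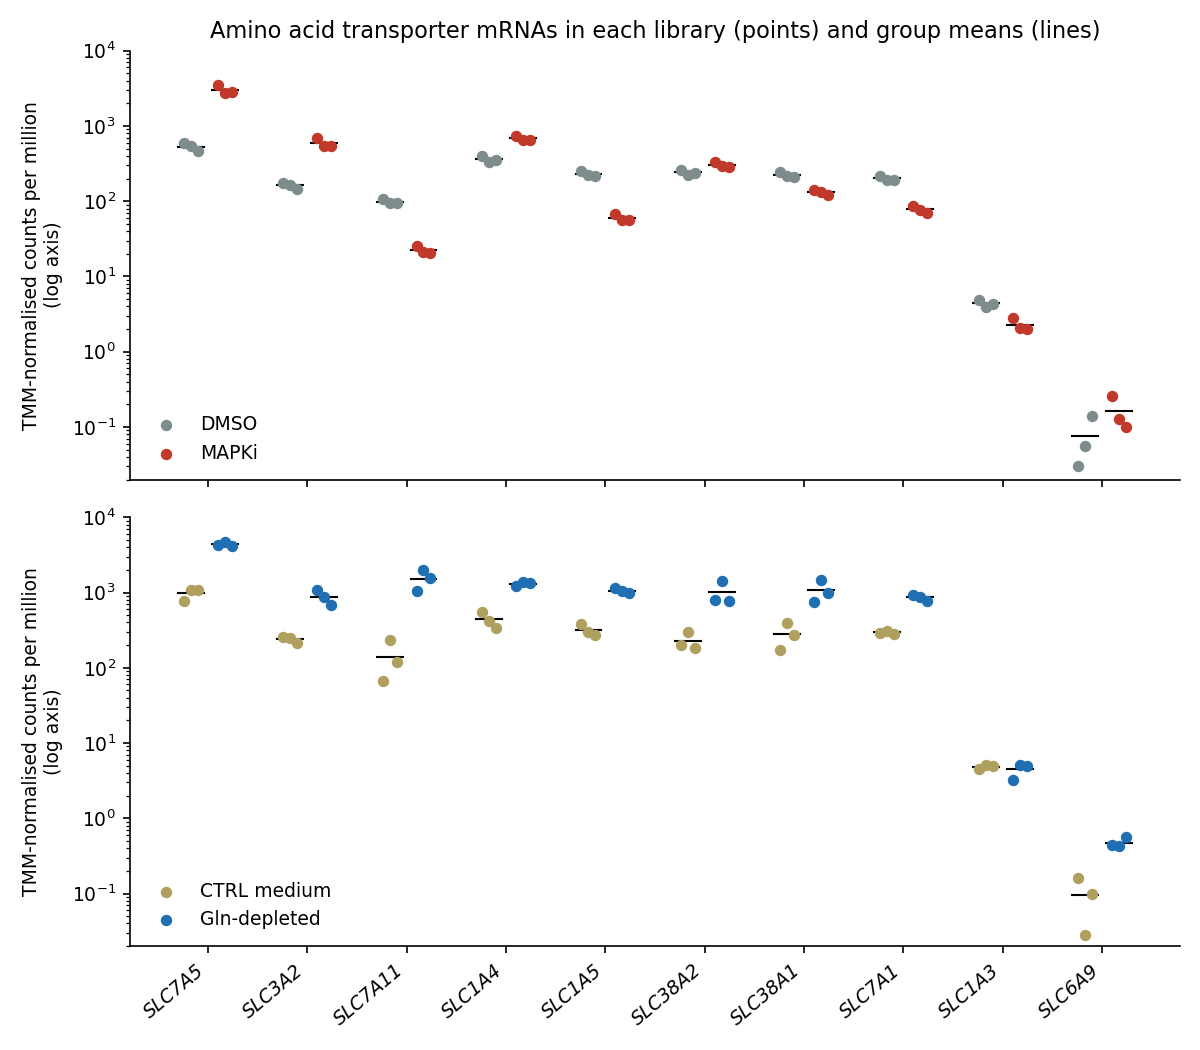
Levels of the 10 transporters in each of the 12 libraries, in normalised CPM on a log axis, with the MAPKi experiment above and the Gln experiment below. Points are libraries and short lines are group means. SLC7A5 reached 2758 to 3494 CPM with MAPKi against 462 to 588 with DMSO, while SLC7A11 lay at 20.3 to 25.5 against 93.6 to 107.

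The heavy chain and its most abundant light chain rose together. SLC7A5, a gene of 10 exons at chr16:87830023-87869507 on the minus strand, was at 3494, 2758 and 2809 CPM in the 3 MAPKi libraries and at 588, 536 and 462 CPM in the DMSO libraries. All MAPKi values were far above all DMSO values, and its log2 fold change was 2.52 (SE 0.11, n = 3 per group, edgeR adjusted p = 6.98e-08), or 5.72-fold. SLC3A2, at chr11:62856004-62888880 on the plus strand, was at 683, 542 and 541 CPM with MAPKi and at 175, 165 and 147 CPM with DMSO. It rose 3.63-fold, with a log2 fold change of 1.86 (SE 0.10, edgeR adjusted p = 2.53e-07). The other light chain among the 10 genes went the other way. SLC7A11, at chr4:138164097-138242349 on the minus strand, was at 25.5, 20.9 and 20.3 CPM with MAPKi and at 107, 93.8 and 93.6 CPM with DMSO, so that every treated library was lower. Its log2 fold change was −2.14 (SE 0.09, edgeR adjusted p = 4.81e-08), to 0.226 times the DMSO level, the largest fall of the 9 genes tested.

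The neutral amino acid exchangers SLC1A4 and SLC1A5 separated. SLC1A5, at chr19:46774883-46788594 on the minus strand, was at 68.6, 56.9 and 56.6 CPM with MAPKi and at 256, 222 and 218 CPM with DMSO. Its level dropped to 0.262 times that of DMSO in libraries that did not overlap, with a log2 fold change of −1.93 (SE 0.09, edgeR adjusted p = 8.45e-08). SLC1A4, at chr2:64988477-65023865 on the plus strand, was at 737, 655 and 658 CPM with MAPKi and at 402, 337 and 354 CPM with DMSO. It was 1.88-fold higher, with a log2 fold change of 0.91 (SE 0.07, edgeR adjusted p = 3.59e-06), and, like SLC1A3 and SLC38A1, it was not called against a log2 threshold of 1. The glutamate transporter SLC1A3, at chr5:36596588-36688334 on the plus strand, was expressed at a low level, 2.79, 2.04 and 2.00 CPM with MAPKi and 4.84, 3.99 and 4.30 CPM with DMSO. Its log2 fold change was −0.94 (SE 0.17, edgeR adjusted p = 0.000665), and it was called at an adjusted p of 0.0249 against 1.5-fold. That call was lost with DESeq2 (adjusted p = 0.206), in a fit of all 12 libraries with edgeR (0.0679), and without DMSO replicate 1 (0.0784), MAPKi replicate 2 (0.061) or MAPKi replicate 3 (0.0748).

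The arginine and lysine transporter SLC7A1 and the glutamine transporter SLC38A1 were lower with MAPKi. SLC7A1, at chr13:29509414-29595688 on the minus strand, was at 86.9, 75.4 and 70.7 CPM with MAPKi and at 218, 193 and 192 CPM with DMSO. Every treated library lay below every control, at 0.386 times the DMSO level, with a log2 fold change of −1.37 (SE 0.08, edgeR adjusted p = 4.05e-07). SLC38A1, at chr12:46183063-46270017 on the minus strand, was at 141, 132 and 123 CPM with MAPKi and at 245, 219.5 and 208 CPM with DMSO. Its log2 fold change was −0.77 (SE 0.07, edgeR adjusted p = 9.44e-06). Its call, at an adjusted p of 0.0132 against 1.5-fold, was lost in a fit of all 12 libraries (adjusted p = 0.283). Its relative SLC38A2, at chr12:46358188-46372773 on the minus strand, was at 337, 293 and 287 CPM with MAPKi and at 257, 226 and 241 CPM with DMSO. The 3 treated libraries were higher, with a log2 fold change of 0.34 (SE 0.07, edgeR adjusted p = 0.00201 against no change), which did not exceed 1.5-fold and was not significant in a fit of all 12 libraries (adjusted p = 0.214). SLC6A9, at chr1:43991500-44031467 on the minus strand, had 4 to 9 reads per MAPKi library and 1 to 5 per DMSO library and was under the count limit. Without that limit its log2 fold change was 1.04 (SE 0.70, edgeR adjusted p = 0.217).

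With Gln depletion, 8 of the 10 transporters were upregulated and none was downregulated. SLC7A11 rose most, followed by SLC7A5, SLC38A2, SLC38A1, SLC3A2, SLC1A5, SLC1A4 and SLC7A1, while SLC1A3 and SLC6A9 were not called. Of all 12512 genes tested, 3.14% were called up and 2.41% down (edgeR). The median log2 fold change was 1.903 over the 10 transporters and −0.03 over all genes. Every Gln-depleted library was higher than every CTRL library for 9 of the 10, and none of the 10 was lower in every library, where 18.3% of all genes were higher and 22.3% were lower in this way. The replicate numbers paired the libraries in this experiment, and with a term for the replicate number 8.18% of all genes were called up and 8.37% down. With that term 9 transporters were up, SLC6A9 being added. SLC6A9 passed the count limit only through its Gln-depleted reads, so its call and its higher libraries are not independent support for a rise.

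SLC7A11 was at 1052, 1996 and 1558 CPM in the 3 Gln-depleted libraries and at 67.2, 233 and 121 CPM in the CTRL libraries. The CTRL values spread widely (CV 60.5%, against 7.88% in DMSO), yet the lowest Gln-depleted library was far above the highest CTRL library, and the ratios within replicates 1, 2 and 3 were 15.7, 8.55 and 12.9. The log2 fold change was 3.45 (SE 0.48, edgeR adjusted p = 0.00471), or 10.9-fold. SLC7A11-AS1, an antisense gene that shares 865 exon bases with SLC7A11, had 45, 64 and 67 reads in the Gln-depleted libraries and 7 to 15 in the CTRL libraries. Whether counting used strand is not given in the sources used here, so that reads of the shared bases cannot be told apart, and SLC7A11 itself had 2495 to 73491 reads in these 6 libraries. The pseudogene SLC7A5P2, related to SLC7A5 by name, had 10 to 24 reads per library.

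SLC7A5 was at 4298, 4734 and 4197 CPM with Gln depletion and at 782, 1081 and 1081 CPM with CTRL medium, a 4.49-fold rise in libraries that did not overlap (log2 fold change 2.17, SE 0.19, edgeR adjusted p = 0.00148). Its partner SLC3A2 was at 1096, 863 and 683 CPM and at 259, 246 and 216 CPM, and rose 3.66-fold (log2 fold change 1.87, SE 0.22, edgeR adjusted p = 0.00284). The heavy chain rose by less in replicate 3 (3.16-fold) than in replicate 1 (4.23-fold), as did SLC7A5 (3.88-fold and 5.50-fold).

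The neutral exchangers, which had separated with MAPKi, both rose with Gln depletion. SLC1A5 was at 1144, 1056 and 972 CPM with Gln depletion and at 385, 301 and 273 CPM with CTRL medium (log2 fold change 1.73, SE 0.20, edgeR adjusted p = 0.00238). SLC1A4 was at 1234, 1388 and 1332 CPM and at 558, 417 and 342 CPM, a log2 fold change of 1.59 (SE 0.22, edgeR adjusted p = 0.00438). The SLC1A4 call was lost without CTRL replicate 2 (adjusted p = 0.0711), CTRL replicate 3 (0.0597) or Gln-depleted replicate 2 (0.0686). SLC1A3 showed no such rise, with 3.26, 5.16 and 4.93 CPM with Gln depletion and 4.495, 5.12 and 4.91 CPM with CTRL medium. These libraries overlapped, and the log2 fold change was −0.12 (SE 0.27, edgeR adjusted p = 0.78), and 0.062 without Gln-depleted replicate 1.

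SLC7A1, SLC38A1 and SLC38A2 were also higher in every Gln-depleted library. SLC7A1 was at 927, 882 and 780.2 CPM with Gln depletion and at 294, 312 and 279.9 CPM with CTRL medium, which was 2.92-fold (log2 fold change 1.55, SE 0.17, edgeR adjusted p = 0.00219). SLC38A1 was at 751, 1461 and 996 CPM and at 175, 391 and 275.5 CPM, with a log2 fold change of 1.93 (SE 0.35, edgeR adjusted p = 0.0110). The highest library of each group was replicate 2, and the ratio within replicates was 4.30, 3.74 and 3.62. SLC38A2 was at 808, 1426 and 775 CPM and at 202, 299.6 and 183 CPM, with a log2 fold change of 2.14 (SE 0.31, edgeR adjusted p = 0.00553). The call of SLC38A1 was lost without CTRL replicate 3 (adjusted p = 0.107), Gln-depleted replicate 2 (0.122) or Gln-depleted replicate 3 (0.0768), and that of SLC38A2 without CTRL replicate 3 (0.0622). These fits had no term for the replicate number, with which both were called up when all libraries of this experiment were kept. Against a log2 threshold of 1, SLC1A4 (adjusted p = 0.104), SLC38A1 (0.127) and SLC7A1 (0.054) were not called.

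SLC6A9 was near the limit of detection, with 16, 16 and 17 reads in the Gln-depleted libraries and 6, 1 and 4 in the CTRL libraries. Its log2 fold change was 2.26 (SE 0.56, edgeR adjusted p = 0.0304 against no change and 0.0757 against 1.5-fold), and with the term for the replicate number it was 2.32 (adjusted p = 0.0403 against 1.5-fold). Against no change the result was lost without CTRL replicate 2 (adjusted p = 0.0808) or CTRL replicate 3 (0.0903). Only 3 of the fits that left out 1 library tested SLC6A9, as it fell under the count limit in the others. CCDC24 shares 46 exon bases with SLC6A9 on the opposite strand and had 78 to 233 reads per library. In the libraries of experimental batch 2 alone, the same 8 transporters were called up, with log2 fold changes from 1.52 (SLC7A1) to 3.37 (SLC7A11). In that fit 726 of all genes tested were called up and 643 down, against 393 and 302 with all libraries of this experiment. Experimental batch 1 holds 1 library per group, so that it gave ratios only.

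**Figure D2:**
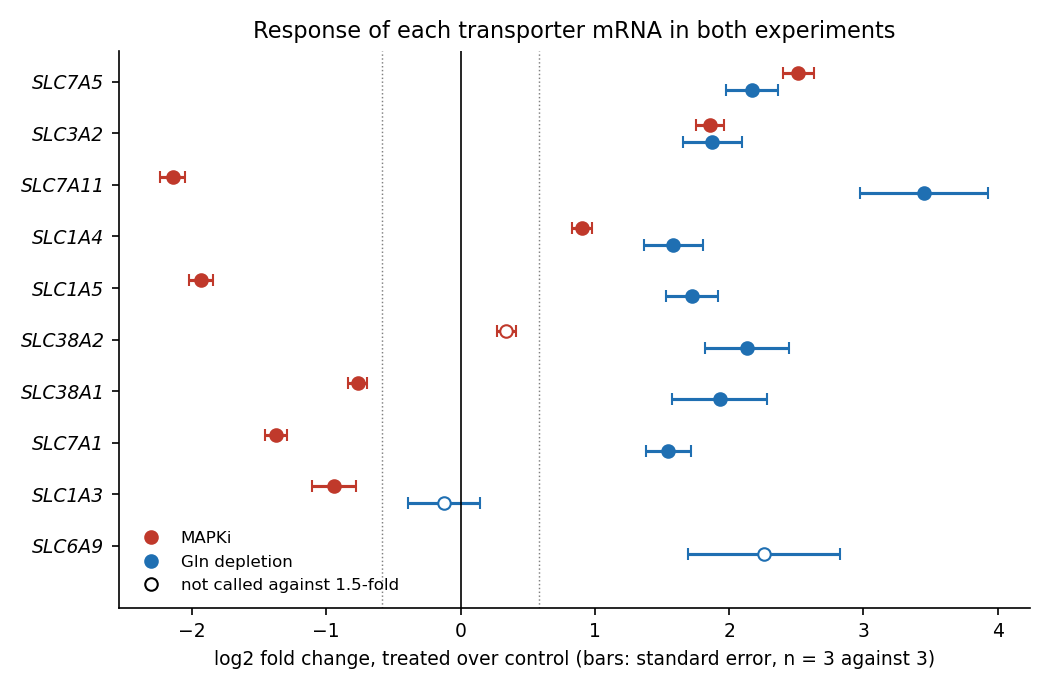
Log2 fold change of each transporter with MAPKi against DMSO and with Gln depletion against CTRL medium. Points are edgeR estimates and bars are standard errors over 3 libraries per group, open points were not called, and dotted lines mark 1.5-fold. SLC7A5 and SLC3A2 lie above 0 in both experiments, whereas SLC7A11, SLC1A5, SLC7A1 and SLC38A1 lie below 0 with MAPKi and above 0 with Gln depletion.

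The responses to the 2 treatments were then compared by a contrast over all 12 libraries, the MAPKi change minus the Gln depletion change, each against its own controls. Of the 9 transporters tested, 7 differed (edgeR, adjusted p at most 0.05), where 40.4% of 12627 genes did. The widest difference was that of SLC7A11, −5.59 on the log2 scale (SE 0.51, edgeR adjusted p = 8.41e-06). SLC1A5 differed by −3.64 (SE 0.23, adjusted p = 5.95e-07), SLC7A1 by −2.91 (SE 0.17, adjusted p = 3.60e-07) and SLC38A1 by −2.69 (SE 0.36, adjusted p = 0.000138). These 4 mRNAs were called down with MAPKi and up with Gln depletion. Over all genes tested, 18.4% were called down with MAPKi and 3.14% up with Gln depletion, and the share with both calls was not counted. SLC38A2 was higher in both experiments but differed by −1.78 (SE 0.31, adjusted p = 0.000887). For SLC1A3 (−0.80, SE 0.29, adjusted p = 0.0455) and SLC1A4 (−0.65, SE 0.24, adjusted p = 0.0482) the difference was lost in 10 of 12 fits that left out 1 library, up to an adjusted p of 0.110 and 0.114, without the count limit (0.0543 and 0.0512), and for SLC1A4 at a mean count of at least 100 (0.0568). SLC1A3 kept it without MAPKi replicate 1 or Gln-depleted replicate 1, and SLC1A4 without CTRL replicate 1 or Gln-depleted replicate 1. For SLC7A5 the difference was 0.36 (SE 0.20, adjusted p = 0.186), and 0.47 without CTRL replicate 1, when it passed (adjusted p = 0.0464). For SLC3A2 it was −0.0013 (SE 0.26, adjusted p = 0.998).

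Levels of different genes were compared per kilobase of the MANE Select exons. SLC7A5 was the highest of the 10 in each group, at 657 CPM per kb with MAPKi, 114 with DMSO, 218 with CTRL medium and 975 with Gln depletion. SLC3A2 came 2nd, at 309.6, 85.0, 129 and 472 CPM per kb. Over the joined length of all annotated exons it was 3rd with MAPKi, 6th with DMSO, 5th with CTRL medium and 6th with Gln depletion. SLC7A5 stayed 1st, and the order below uses the MANE Select lengths. With MAPKi no neighbours in the order overlapped between libraries, from SLC7A5 through SLC3A2, SLC1A4 (148), SLC38A2 (63.2), SLC1A5 (20.9), SLC38A1 (16.2), SLC7A1 (10.5), SLC7A11 (2.28) and SLC1A3 (0.576) to SLC6A9 (0.0503). With DMSO, SLC3A2, SLC1A5 (79.4) and SLC1A4 (78.8) overlapped, as did SLC38A1 (27.3) and SLC7A1 (27.03).

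The order differed by treatment mainly for SLC1A5, SLC7A11 and SLC7A1. SLC7A1 was 6th with CTRL medium and 8th with Gln depletion, and overlapped the gene before it in both. SLC1A5 overlapped SLC3A2 with DMSO, CTRL medium (113 CPM per kb) and Gln depletion (369.96), but was at 20.9 against 309.6 with MAPKi. Over all annotated exons SLC1A5 was at 68.7 CPM per kb with DMSO against 25.1 for SLC3A2. With MAPKi it was at 18.1 against 91.3. SLC7A11 was 8th in the order with MAPKi, DMSO (10.0) and CTRL medium (14.5), and 6th with Gln depletion at 159.5 CPM per kb, where it overlapped its neighbours SLC38A2 (209.6) and SLC38A1 (132). With CTRL medium SLC1A5 also overlapped SLC1A4 (98.1), and SLC38A2 (48.0), SLC7A1 (40.8), SLC38A1 (34.7) and SLC7A11 each overlapped the next in that order. With Gln depletion SLC1A4 (291) overlapped SLC38A2, and SLC38A1 overlapped SLC7A1 (119). SLC1A3 and SLC6A9 were last in every group.

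**Figure D3:**
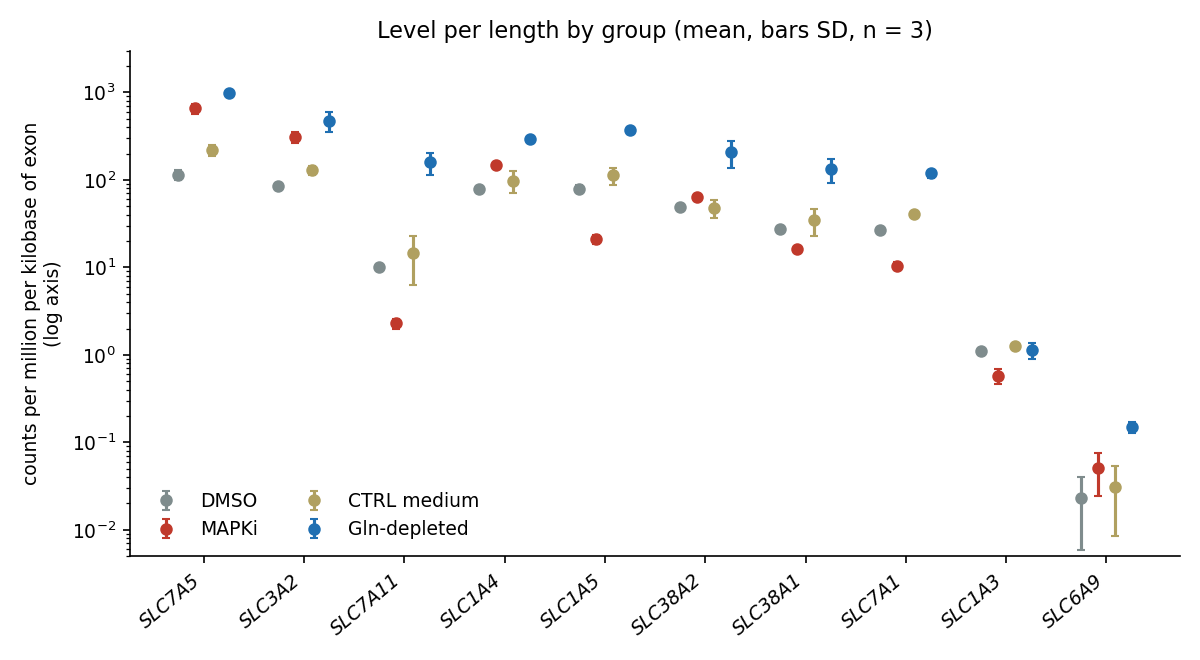
Level of each transporter in CPM per kilobase of exon, on a log axis, for the 4 groups. Points are means and bars are the SD over 3 libraries. SLC7A5 leads in every group, and SLC6A9 lies at or below 0.150 CPM per kb throughout.

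The makeup of the heavy chain's partners was described after the values had been seen, from the level per kilobase of SLC7A5, SLC7A6, SLC7A7, SLC7A8, SLC7A10 and SLC7A11. The sum of these light chains divided by SLC3A2 was 2.32 ± 0.0431 (SD, n = 3) with MAPKi and 1.56 ± 0.0367 with DMSO, in libraries that did not overlap. It was 2.52 ± 0.620 with Gln depletion and 1.93 ± 0.479 with CTRL medium, where the libraries overlapped. The size of these ratios rests on the MANE Select length of SLC3A2, 1885 bases, against 6392 over all its annotated exons. SLC7A5 made up 91.4% of the light chains with MAPKi, 86.0% with DMSO, 88.9% with CTRL medium and 85.5% with Gln depletion. The share of SLC7A11 was 0.318%, 7.58%, 5.73% and 13.9% in that order, and that of SLC7A8, a second exchanger of neutral amino acids, was 7.56%, 2.41%, 1.27% and 0.0276%. The shares of SLC7A11 and SLC7A8 thus moved in opposite directions in each experiment. Summed over the 10 genes, the transporters held 4851 ± 587 CPM with MAPKi, 2030 ± 173 with DMSO, 2964 ± 203 with CTRL medium and 12214 ± 1155 with Gln depletion. SLC7A5 alone held 61.7% of that sum with MAPKi and 25.7% with DMSO.

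**Figure D4:**
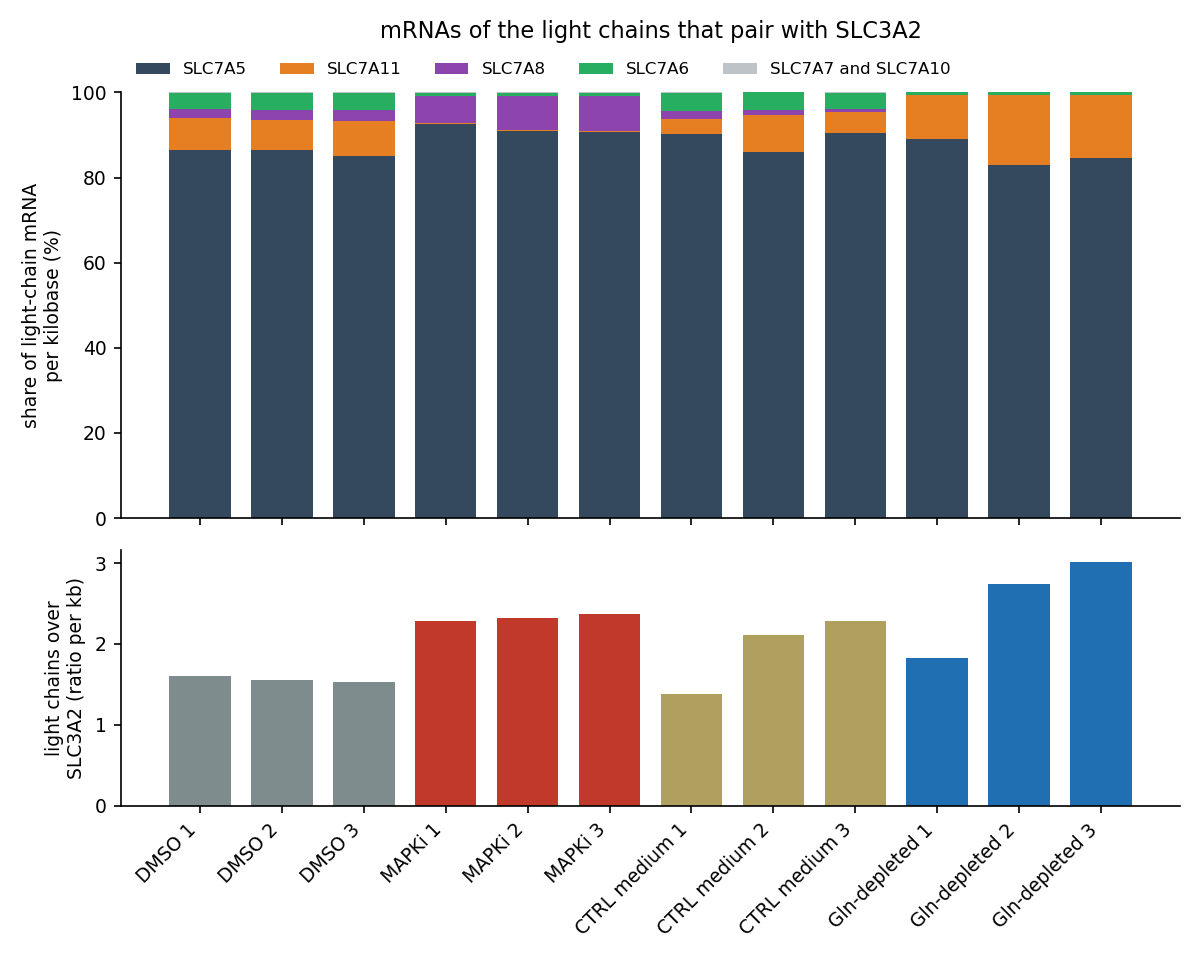
Makeup of the light chains of SLC3A2 in each of the 12 libraries, as percent of their summed level per kilobase (upper bars), and the ratio of that sum to SLC3A2 (lower bars). The SLC7A11 share averages 13.9% with Gln depletion and 0.318% with MAPKi.

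The encoded proteins were described from translated coding sequences. The 10 proteins hold 487 to 633 residues, and the closest were SLC1A4 and SLC1A5 with 62.2% identical residues in the alignment and SLC38A1 and SLC38A2 with 53.5%. SLC1A4 and SLC1A5 moved oppositely with MAPKi, and SLC38A1 was called down while SLC38A2 rose against no change only, a pairing noticed after the values were seen. All 10 were more hydrophobic on the Kyte-Doolittle index (−0.16 to 0.74) than the median of −0.40 over 12623 proteins, as membrane proteins are. Aspartate and glutamate made up 5.53% to 12.3% of their residues, below the median of 11.9% in 9 of 10, SLC3A2 being the exception, and leucine was above the median of 9.79% in all 10.

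Other amino acid transporters were described for comparison, as a list of 53 genes. With MAPKi, 14 of 32 tested were up, 4 were down and 14 were neither, with a median log2 fold change of 0.70, where 17.2% of all genes were up and 18.4% down. With Gln depletion, 0 of 30 tested were up, 4 were down and 26 were neither, with a median of −0.20, where 3.14% of all genes were up and 2.41% down. The 4 largest rises with MAPKi were those of SLC38A3, SLC7A8, SLC7A7 and SLC6A17. SLC38A3 and SLC7A7, both among the 14, passed the count limit only through their MAPKi reads. Their calls are therefore not independent support for a rise. SLC38A3, a glutamine transporter, had 51, 49 and 52 reads in the MAPKi libraries and 0 in every DMSO library, which is at least 16.7-fold higher against a floor of 3 counts per library. SLC7A8 was at 227, 223 and 239 CPM with MAPKi and at 14.3, 12.98 and 13.7 CPM with DMSO (log2 fold change 4.07, SE 0.06, edgeR adjusted p = 2.39e-10). SLC7A7, a light chain for cationic and neutral amino acids, rose by 2.61 on the log2 scale (SE 0.28, adjusted p = 2.13e-05), with 41 to 57 reads against 5 to 10, and SLC6A17 rose by 2.27 (SE 0.21, adjusted p = 8.86e-06).

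The falls in this list with MAPKi were of SFXN2 (−2.06, SE 0.12, edgeR adjusted p = 3.68e-07), the glutamate transporter SLC1A1 (−1.70, SE 0.11, adjusted p = 7.42e-07), the cationic transporter SLC7A2 (−1.27, SE 0.06, adjusted p = 1.13e-07) and the mitochondrial ornithine carrier SLC25A15 (−1.25, SE 0.06, adjusted p = 8.35e-08). With Gln depletion SLC7A8 was at 0.843, 0.978 and 2.10 CPM against 15.1, 14.2 and 8.10 CPM, a log2 fold change of −3.26 (SE 0.44, edgeR adjusted p = 0.00427), so that it changed in the opposite direction to that with MAPKi (difference 7.36, SE 0.44, adjusted p = 3.06e-07). SLC16A10, which carries aromatic amino acids, fell by 2.41 on the log2 scale (SE 0.31, adjusted p = 0.00369). SLC1A1 (−1.74, SE 0.26, adjusted p = 0.00609) and SFXN2 (−1.70, SE 0.32, adjusted p = 0.0116) were also called down. Both calls were lost in several fits without 1 library, with an adjusted p of up to 0.0757 for SLC1A1 (without CTRL replicate 2 or 3 or Gln-depleted replicate 2 or 3) and 0.154 for SFXN2 (without any CTRL replicate or Gln-depleted replicate 1 or 2), and SFXN2 was not called in experimental batch 2 alone (0.0808). With the term for the replicate number 9 genes of the list were down and 1 was up, where 8.37% of all genes were down and 8.18% up.

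The genes that answer to amino acid supply were given as a second list of 12, of which 11 were tested in each experiment. With MAPKi 3 were up and 5 down (median −0.46), where 17.2% of all genes were up and 18.4% down. With Gln depletion 10 were up and none down (median 2.41), where 3.14% of all genes were up and 2.41% down. ATF4 was at 117, 127 and 124 CPM with MAPKi and at 209, 182 and 222 with DMSO, a log2 fold change of −0.74 (SE 0.07, edgeR adjusted p = 1.29e-05), and at 967, 925 and 855 CPM with Gln depletion against 306, 256 and 192, a log2 fold change of 1.87 (SE 0.21, adjusted p = 0.00255). The MAPKi call of ATF4 was lost with DESeq2, in a fit of all 12 libraries, and without DMSO replicate 1, DMSO replicate 3 or MAPKi replicate 1 (adjusted p up to 0.104), while the difference between the 2 responses was −2.58 (edgeR adjusted p = 9.49e-06). CHAC1, an enzyme that breaks down glutathione, changed by −2.93 (SE 0.19, adjusted p = 6.49e-07) with MAPKi and by 3.28 (SE 0.33, adjusted p = 0.00188) with Gln depletion. TRIB3, a pseudokinase, changed by −1.13 (SE 0.06, adjusted p = 2.60e-07) and by 3.14 (SE 0.20, adjusted p = 0.00101). ASNS, asparagine synthetase, which another annotated gene overlaps, changed by −2.14 (SE 0.33, adjusted p = 0.000279) and by 2.81 (SE 0.38, adjusted p = 0.00436) at only 4 to 131 reads per library.

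The largest rises with MAPKi in these lists were of ATF3 (2.36, SE 0.13, edgeR adjusted p = 2.33e-07), of HMOX1, heme oxygenase (1.76, SE 0.08, adjusted p = 6.16e-08), and of ATF5 (0.92, SE 0.06, adjusted p = 9.89e-07). NFE2L2 was not called in either experiment, at −0.21 (SE 0.04, adjusted p = 0.00169 against no change) with MAPKi and 1.11 (SE 0.32, adjusted p = 0.0469 against no change) with Gln depletion, and was called up in the latter with the term for the replicate number (adjusted p = 0.00344) and in experimental batch 2 alone (0.0338). Of NFE2L2 and its 5 listed targets, 1 was up and 1 down with MAPKi, where 17.2% of all genes were up and 18.4% down. With Gln depletion 2 were up, TXNRD1 and SRXN1, where 3.14% of all genes were up. MYC fell by 4.06 on the log2 scale with MAPKi (SE 0.10, adjusted p = 3.04e-09), from 46.7, 49.6 and 43.1 CPM with DMSO to 2.65, 3.29 and 2.48, and was not called with Gln depletion (−0.99, SE 0.26, adjusted p = 0.0353 against no change). Whether these factors contribute to the levels of the transporters was not tested.

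**Figure D5:**
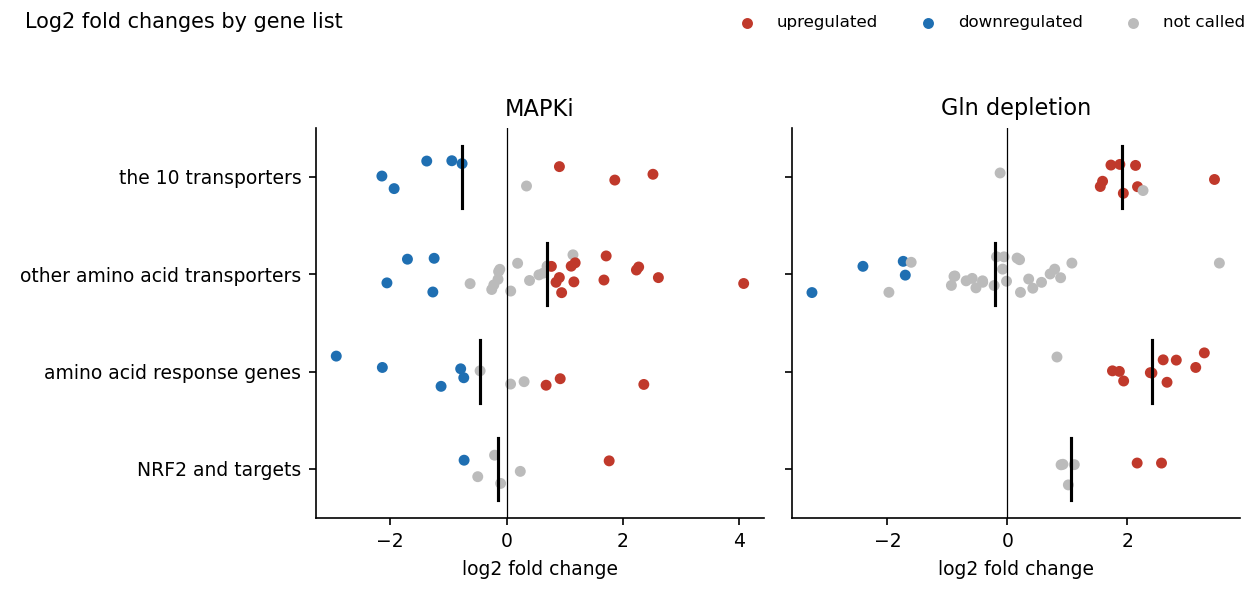
Log2 fold change of each gene of the transporter and response lists in both experiments, with points for genes tested and a line at each list's median. With MAPKi the median was −0.77 over the 9 transporters tested, of which 3 were called up and 5 down. With Gln depletion it was 1.903 over 10. The medians of the other amino acid transporters were 0.70 with MAPKi and −0.20 with Gln depletion. SLC38A3, with 0 reads in every DMSO library, is not drawn with MAPKi but is counted in the median.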

How the data were processed

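RNA-seq was performed on RNA from A375 cells, which the sample labels describe as a cytoplasmic fraction and the methods as total RNA, after ribosomal RNA depletion. The authors trimmed reads with fastp 0.20.1, aligned them to GRCh38.p13 with HISAT2 2.2.1 and counted those on exons with HTSeq 0.13.5. The deposited values are raw counts per gene, not normalized, and every column of values was used. Nothing says that replicates are separate cultures, so that p-values measure the spread between these samples, which may be technical.

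The tests were run in edgeR 4.0.16 (R 4.3.3), separately for the 2 experiments, with TMM factors and a quasi-likelihood model of treatment alone. Protein-coding genes entered at a mean of 10 or more normalized counts, and p-values were Benjamini-Hochberg adjusted over all genes tested. Calls were made against a change of 1.5-fold, and single genes were tested against no change. The difference between experiments was a contrast over 12 libraries. Alternatives were DESeq2 1.42.0, its size factors, no filter, a mean count of at least 100, all genes, a log2 threshold of 1 or none, 1 fit of all libraries, the replicate block, batch 2 alone, and each library left out. Scripts were tested on simulated data.

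Replicate numbers paired the libraries of the Gln experiment, where deviations from the group mean of same-numbered libraries correlated at 0.664, 0.550 and 0.433, and the labels tie the numbers to experimental batches. Lengths and coding sequences came from GENCODE 44 (MANE Select), and promoter windows from RefSeq. A planned comparison from a protein table was replaced by translated coding sequences, and its cysteine comparison was not run. Figures were drawn with matplotlib 3.10.9. The 10 genes and the lists were chosen with earlier results of these data known. Named were the 10 genes, per experiment and direction the 4 other transporters and 3 response genes or NRF2 targets with the largest called change, ATF4, NFE2L2, MYC, DUSP6, SPRY4, and genes overlapping a transporter, of which 1 is not reported here. TXNRD1 and SRXN1 were named after their values were seen.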

Additional observations from a re-analysis of the deposited data

How the results depend on the processing

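With MAPKi, 3 transporters were upregulated, but 4 without a threshold and 2 against a log2 threshold of 1. There were 5 downregulated, but 4 with DESeq2, 3 against a log2 threshold of 1, 3 in a fit of all 12 libraries, and 4 to 5 when each library was left out. With Gln depletion, 8 were upregulated, but 9 with the replicate block or without a threshold, 5 against a log2 threshold of 1, and 5 to 8 when each library was left out, the 5 without CTRL replicate 3. None was downregulated under any alternative. The responses differed in 7, in 5 without the count limit, in 6 with a mean count of at least 100, and in 5 to 7 when each library was left out. The sign of SLC1A3 with Gln depletion turned to 0.042 in batch 2 alone, and ran from −0.24 to 0.062 on leaving out libraries. The SLC3A2 difference turned to 0.026 with a mean count of at least 100 and to 0.018 with the replicate block, and ran from −0.16 to 0.21 on leaving out libraries. In the MAPKi experiment the replicate block left 3 up and 5 down, and same-numbered libraries correlated at 0.118, 0.0287 and 0.0438, with MAPKi replicate 3 closer to DMSO replicate 2 (0.0442). Of 414 alternative log2 fold changes of single transporters, tested against no change, 376 kept their direction and significance, 26 lost significance, 1 gained it and 11 turned sign. Lost calls against 1.5-fold are given above. Over all genes, 393 were up and 302 down with Gln depletion, and 1024 and 1047 with the replicate block, 726 and 643 in batch 2 alone, 790 and 903 in a fit of all 12 libraries, 177 and 67 against a log2 threshold of 1, and 1088 and 1221 without threshold. With MAPKi 2162 were up and 2314 down, and 1040 and 1256 against a log2 threshold of 1, 4948 and 4890 without threshold, and 1402 and 1637 in a fit of all 12 libraries. The causes were not tested, apart from stricter thresholds or fewer samples. Low counts limit SLC6A9 (1 to 17 reads) and SLC1A3 (64 to 199 reads).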
